A study of Homo sapiens with 16 samples.

Results

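The difference of the NEL effect between 2 human myeloid cell lines was examined gene by gene, in 1 model of the means of 4 groups. It is the log2 fold change of NEL over vehicle in U937 minus the same fold change in KG1A. Of 34618 gene IDs in the table, 16117 passed the filter on low counts and were tested, and the 12016 of them with a mean of at least 1 CPM (counts per 1000000, scaled by normalization factors) in every group are described here. That floor keeps out genes that 1 line hardly expresses. The lowest group mean was 1.00042 CPM in ATL1, the gene nearest inside the floor, and 0.999 CPM in ANKRD24, the nearest outside. KG1A is an immature CD34+ line and U937 a promonocytic line, both established human cell lines. The groups were KG1A with DMSO, KG1A with 10 µM NEL, U937 with DMSO and U937 with 10 µM NEL, with 4 polyadenylated RNA libraries each and 16 in all. All cells grew in RPMI medium with dialyzed serum. The labels spell out neither NEL, which is read here as nelarabine as in the study's publication, nor the treatment time. Each line stands for 1 donor, so a difference between the lines cannot be told apart from a difference between those clones.

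Nelarabine is a prodrug of the guanosine analogue ara-G, which cells phosphorylate with the salvage enzymes deoxycytidine kinase and deoxyguanosine kinase and build into DNA as ara-GTP. Its incorporation stalls replication forks, so genes of deoxynucleotide supply, S phase and fork repair were followed. Rapidly growing leukaemia cells depend on the transcription factor MYC, which binds E-boxes as a dimer with MAX and drives ribosome assembly, nucleotide synthesis and chaperone genes. MXD proteins, MXI1 and MGA take the place of MYC on MAX. Myeloid cells that mature gain surface integrins and shut down growth genes, so these were followed as well.

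Library totals were 10641567 to 11046699 counts in the NEL libraries and 10900129 to 11049006 in the DMSO libraries of KG1A, and from 11157449 to 11403031 and 11524192 to 11777684 in those of U937. Libraries numbered 1 and 3 stood apart from those numbered 2 and 4 in every group, so differences are also given within these sets. Of the 6 blood and myeloid identity genes, all reached 1 CPM in some library, and their summed level was 2122–2249.6 CPM with DMSO and 1871–1992 with NEL in KG1A, and 1703–1947 and then 2231–2480.2 in U937. T lymphoid markers, 4 of 9 of them reaching 1 CPM in some library, summed to 265 to 296 CPM in KG1A and 0.697 to 1.61 in U937. Erythroid and megakaryocyte markers went from 495–511 to 579–609.9 CPM in KG1A and from 17.1–19.7 to 12.4–13.9 in U937. Only 3 of these 13 markers reached 1 CPM in some library, and 7 were at 0 in every library, so the sum rests on few genes. B lymphoid markers, 5 of 8 of them reaching 1 CPM, went from 6.397–7.81 to 9.75–12.8 CPM in KG1A and from 44.9–52.7 to 76.0–83.0 in U937. Epithelial markers were at 0 to 0.180 CPM in sum, with 4 of 7 at 0 in every library. Fibroblast markers, 3 of 6 of them reaching 1 CPM, summed to 8.05 to 9.60 CPM in U937 with NEL. In the other groups that sum was 1.298 to 2.71 CPM, and the part of these cell type markers in the results was not tested. In such bulk libraries a change in the share of cells in a given state and a change of RNA per cell cannot be told apart.

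The difference between the lines was called in 6933 of the 12016 genes, which is 57.7%, against 47.4% of all genes tested (edgeR's quasi-likelihood test, Benjamini-Hochberg adjusted p under 0.05 over all 16117 genes). It was higher in U937 in 2968 genes (24.7%) and lower in 3965 (33%), and 5083 genes were not called. With libraries 1 and 3, and 2 and 4, summed, 5361 genes (44.6%) were called, 2269 higher and 3092 lower. A difference given below was called unless it is said not to be. Where listed genes are counted as higher or lower in U937 below, this refers to the difference and not to the level. Differences of at least 2-fold were called in 504 genes one way and 508 the other. NEL itself changed 5665 of these genes in KG1A (47.1%, with 2809 or 23.4% higher and 2856 or 23.8% lower) and 8498 in U937 (70.7%, with 3808 or 31.7% higher and 4690 or 39% lower). The median size of the NEL effect on the log2 scale was 0.185 in KG1A and 0.346 in U937, and it was the larger one in U937 in 8121 genes, 67.6%. Over the 12016 genes the effects in the lines had a Pearson r of 0.283 and a Spearman rho of 0.271, a description across genes, which are not independent replicates. The balance of the calls moved with the scaling: 42.8% of them were higher in U937 with TMM factors, and 52.9% (3653 higher and 3247 lower) with DESeq2's size factors, under which the median difference was 0.03 in place of -0.06.

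The largest pattern by count was a change in U937 without a call in KG1A: 1884 genes fell and 1287 rose in U937 alone by these calls, and the difference was called in each. Changes called in KG1A and not in U937 were fewer, 474 higher and 399 lower. Another 478 genes rose in both lines and more in U937, 190 rose in both and more in KG1A, 630 fell in both and more in U937, and 108 fell in both and more in KG1A. In 1363 genes, 11.3%, NEL changed the level in opposite directions, 643 higher in U937 and lower in KG1A and 720 the other way round. There were 744 such genes with libraries 1 and 3, and 2 and 4, summed, and 1922 with the replicate number as a block. In 1000 of the 1363 genes the 4 NEL libraries lay apart from the 4 DMSO libraries in both lines. Taken 1 line at a time, that held for 42.7% of the 12016 genes in KG1A and 63.1% in U937. The 1363 genes were called on the same libraries, so this count is no further test. In the remaining 120 called genes neither line passed on its own.

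**Figure D1:**
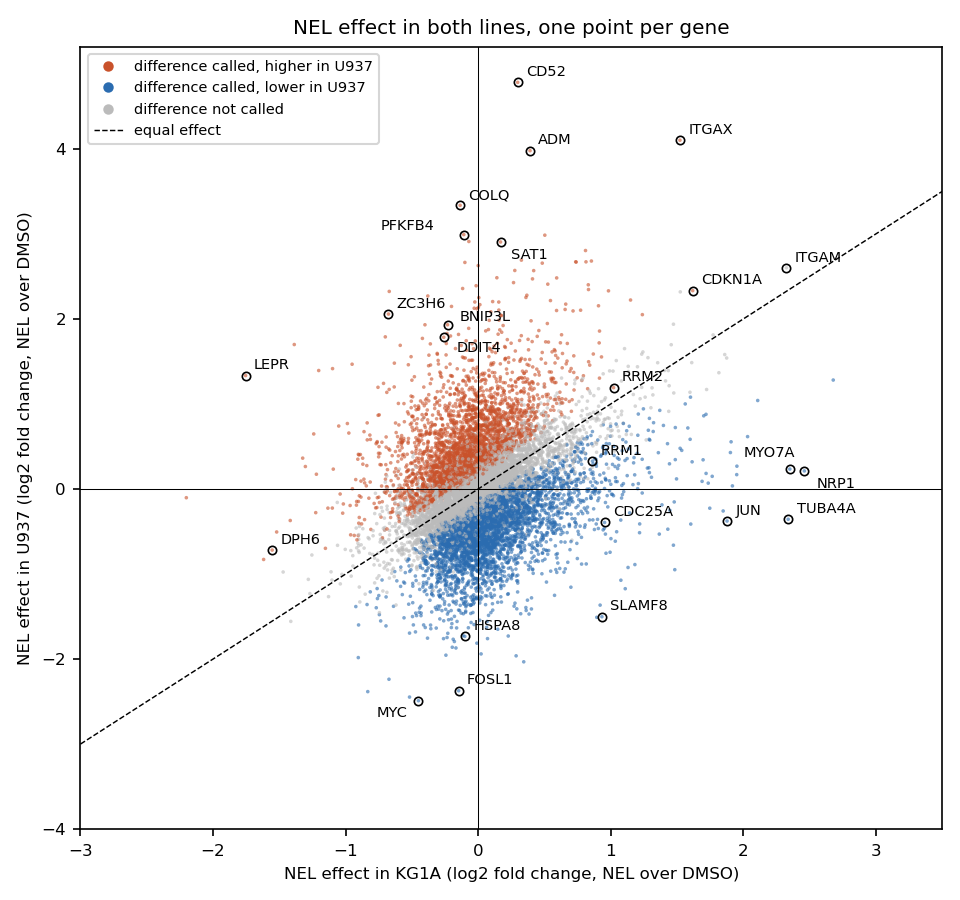
Log2 fold change of NEL over DMSO in KG1A (horizontal axis) and U937 (vertical axis), 1 point per gene for the 12016 genes, coloured by whether the difference was called. Genes on the dashed line had equal effects, and the spread is wider along the U937 axis (SD 0.578) than along the KG1A axis (SD 0.35).

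The MYC transcript fell much further in U937 than in KG1A, and so did nearly all of the ribosome assembly factors listed. MYC (chromosome 8, 128747680 to 128753674, GRCh37, as are all gene positions outside the promoter sequences) stood at 725, 722, 689.9 and 707 CPM in KG1A with DMSO and 529.7, 527, 520.3 and 505 with NEL, and 443, 434, 451 and 439 CPM in U937 with DMSO and 81.2, 74.8, 80.9 and 77.8 with NEL. The NEL libraries lay below the DMSO libraries in both lines, and the U937 NEL libraries were the lowest of all 16. The log2 fold change was -0.45 ± 0.03 in KG1A and -2.49 ± 0.04 in U937 (SE, n = 4 libraries per group), a difference of -2.04 ± 0.05 (edgeR adjusted p = 1.99e-17). Some of the listed genes whose products compete with MYC for MAX, namely MXD1, MXI1 and MGA, had higher effects in U937. MXD1 rose in both lines and more in U937, from 14.2–15.01 to 36.6–39.1 CPM there against 21.9–25.9 to 30.5–31.1 CPM in KG1A (difference 1.02 ± 0.09, edgeR adjusted p = 4.02e-09). MXI1 and MGA fell in KG1A and rose in U937. MXI1 was at 19.3, 17.3, 20.9 and 19.8 CPM in KG1A with DMSO and 16.5, 14.8, 14.5 and 13.4 with NEL, and 62.6, 64.9, 63.5 and 63.0 CPM in U937 with DMSO and 98.5, 104, 100.2 and 96.4 with NEL, with no overlap in either line and a difference of 1.04 ± 0.09 (edgeR adjusted p = 2.25e-09). MGA ranged over 58.3–65.6 and then 49.6–55.3 CPM in KG1A, and 4.83–6.03 and then 14.6–15.8 CPM in U937, a difference of 1.67 ± 0.10. MLXIP, a partner of the related factor MLX, differed by -0.59 ± 0.09. Of the 10 genes of this network that met the floor, 4 were higher and 3 lower in U937, and 3 were not called. Other members, among them MXD3, MXD4 and MNT, are not described one by one.

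Ribosome biogenesis factors build the small and large ribosomal subunits in the nucleolus. Of the 60 listed, 58 had a lower NEL effect in U937, 1 a higher one and 1 was not called, with a median difference of -0.94 beside -0.06 over all 12016 genes, of which 33% were lower. In U937 58 fell and 1 rose (median -1.08), whereas in KG1A 26 fell and 3 rose (median -0.13). MRTO4, a factor of large subunit assembly (chromosome 1, 19578033 to 19586622), was at 42.1, 38.1, 43.2 and 43.0 CPM in KG1A with DMSO and 40.8, 41.0, 39.9 and 36.3 with NEL, and 142, 138, 143 and 137 CPM in U937 with DMSO and 43.0, 47.1, 44.7 and 45.9 with NEL. The KG1A groups overlapped, and U937 dropped from the highest of the 4 groups to levels near those of KG1A. Its difference was -1.56 ± 0.07 (edgeR adjusted p = 2.16e-13). RRS1, needed for the same subunit, went from 64.4–75.9 to 16.5–20.7 CPM in U937 and from 29.9–31.8 to 24.6–28.7 CPM in KG1A (difference -1.67 ± 0.10, edgeR adjusted p = 9.75e-12). NOP2, an rRNA methyltransferase picked after its values were seen, was at 69.7–76.5 and 66.8–71.3 CPM in KG1A, with overlapping groups, and 153–168 and 59.8–68.0 CPM in U937 (difference -1.24 ± 0.07). The single factor with a higher effect in U937 was TAF1D, a subunit of the RNA polymerase I selectivity factor, which fell in KG1A (-0.33) and rose in U937 (0.17, difference 0.50 ± 0.05).

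Promoters of MRTO4 and NOP2 are printed because both genes fell in U937 and hold the MYC and MAX motif near the start. Each is 300 bases, from 250 before to 50 after the RefSeq start (GRCh38.p14, 5′ to 3′ on the gene's strand), with the E-box CACGTG, which reads the same on both strands, in capitals. MRTO4 lies on the plus strand at chr1:19251555-19251854 and NOP2 on the minus strand at chr12:6568242-6568541.
MRTO4: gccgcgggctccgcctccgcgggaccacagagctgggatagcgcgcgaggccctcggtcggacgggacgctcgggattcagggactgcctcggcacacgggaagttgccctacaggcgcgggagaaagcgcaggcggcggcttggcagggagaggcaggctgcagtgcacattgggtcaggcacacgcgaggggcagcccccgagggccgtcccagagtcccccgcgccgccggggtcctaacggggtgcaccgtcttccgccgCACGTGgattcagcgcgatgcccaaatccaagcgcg
NOP2: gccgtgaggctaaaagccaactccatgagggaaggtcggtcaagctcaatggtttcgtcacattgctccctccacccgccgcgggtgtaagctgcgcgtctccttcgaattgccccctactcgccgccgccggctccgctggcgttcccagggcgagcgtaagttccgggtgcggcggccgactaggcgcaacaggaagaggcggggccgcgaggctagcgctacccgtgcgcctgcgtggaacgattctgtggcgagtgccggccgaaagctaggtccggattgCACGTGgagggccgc
The match starts 14 bases after the start in MRTO4 and 35 in NOP2. Promoters could be matched by symbol for 8955 of the 12016 genes, and 10.6% of them held CACGTG, against 7.43% of all 27305 promoters in the table. Among ribosome biogenesis factors 20 of 50 did (40%), and among lysosomal genes, whose median difference was 0.07, 10 of 33 (30.3%). The share was 17.5% in genes that fell in both lines and more in U937 and 15.1% in genes lower in U937 and higher in KG1A. In genes lower in U937 and not called in KG1A it was 12.5%, and in genes without a called difference 9.51%. Lists described below that were also mostly lower in U937 had smaller shares. The motif was in 1 of 33 proteasome promoters (3.03%) and 5 of 63 promoters of mitochondrial ribosomal proteins (7.94%). Whether MYC had a part in these differences was not tested. A match is a description of the letters and no evidence of binding.

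Most of the heat shock genes and related chaperones listed fell in U937, and most were not called in KG1A. Of 33 heat shock proteins, co-chaperones and chaperonin subunits, 28 had a lower NEL effect in U937, 1 a higher one and 4 were not called (median difference -0.73). In U937 29 fell and 2 rose, and in KG1A 9 rose and 4 fell. HSPA8, the constitutive HSP70 (chromosome 11, 122928197 to 122933938), was at 2012, 2130.2, 2013 and 2108 CPM in KG1A with DMSO and 1831, 1993, 1903 and 1982 with NEL, and 2515, 2633, 2621 and 2836 CPM in U937 with DMSO and 778, 827, 769.7 and 815 with NEL. The KG1A libraries were called neither way (edgeR adjusted p = 0.0617) although their 2 groups just missed each other, while every U937 NEL library was below every other library. The difference was -1.63 ± 0.06 (edgeR adjusted p = 8.97e-15). DNAJA1, a co-chaperone of HSP70, rose in KG1A from 129–152 to 169.6–200.2 CPM and fell in U937 from 219–269 to 81.3–94.6 CPM (difference -1.85 ± 0.10). HSP90AA1, the inducible HSP90 and a gene picked after its values were seen, also moved in opposite directions, 0.19 in KG1A and -0.92 in U937 (difference -1.10 ± 0.07). HSPA1B differed by -1.81 ± 0.22 at 2.92–4.26 CPM in KG1A and 18.4–24.7 CPM in U937 with DMSO, but it has a near-identical copy, HSPA1A, between which counting may have split reads.

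The heat shock element, bound by HSF1, was searched as GAANNTTCNNGAA on both strands. It was present in 4 of 29 promoters of the chaperone list (13.8%), those of HSPA8, DNAJA1, DNAJB6 and CHORDC1, against 0.29% of the 8955 matched genes and 0.487% of all promoters. HSPA8 (chr11:123062087-123062386, minus strand) and DNAJA1 (chr9:33025023-33025322, plus strand) are shown because both hold the motif and differed by over 1.5 on the log2 scale, with matches in capitals (in HSPA8 the second match reads on the other strand).
HSPA8: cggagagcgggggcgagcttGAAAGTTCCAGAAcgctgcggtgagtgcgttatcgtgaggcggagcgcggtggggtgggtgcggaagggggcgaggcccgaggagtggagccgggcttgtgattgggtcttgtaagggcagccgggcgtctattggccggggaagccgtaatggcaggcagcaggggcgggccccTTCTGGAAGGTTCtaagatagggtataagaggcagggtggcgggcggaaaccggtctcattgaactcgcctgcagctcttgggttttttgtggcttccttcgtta
DNAJA1: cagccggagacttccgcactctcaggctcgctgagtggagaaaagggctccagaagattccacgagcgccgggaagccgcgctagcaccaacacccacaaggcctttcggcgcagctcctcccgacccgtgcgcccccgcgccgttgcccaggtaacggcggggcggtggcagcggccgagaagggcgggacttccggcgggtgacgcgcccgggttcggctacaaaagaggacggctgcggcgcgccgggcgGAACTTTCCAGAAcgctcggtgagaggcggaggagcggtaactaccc
The HSPA8 matches begin 230 and 55 bases before the start and the DNAJA1 match 3 bases after it. A higher share in a list of heat shock genes is no test, and a match is no evidence of binding.

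Endoplasmic reticulum chaperones and unfolded protein response genes were split. Of 25, 13 had a lower effect in U937 and 4 a higher one (median difference -0.27). In KG1A 7 rose and none fell by the same test, with 18 not called. Beside this, 23.4% of all 12016 genes rose and 23.8% fell in KG1A. MANF, a secreted stress-response factor, rose in KG1A from 39.4–43.1 to 52.3–56.7 CPM and fell in U937 from 108–127 to 70.5–76.6 CPM (difference -1.10 ± 0.07). SDF2L1, a luminal chaperone cofactor, differed by -1.41 ± 0.17. ERN1, the sensor kinase IRE1, was among the 4 on the higher side, at 11.01–13.6 and then 24.9–29.6 CPM in U937 against overlapping groups of 6.77–9.46 and 6.95–9.75 CPM in KG1A (difference 1.17 ± 0.16).

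**Figure D2:**
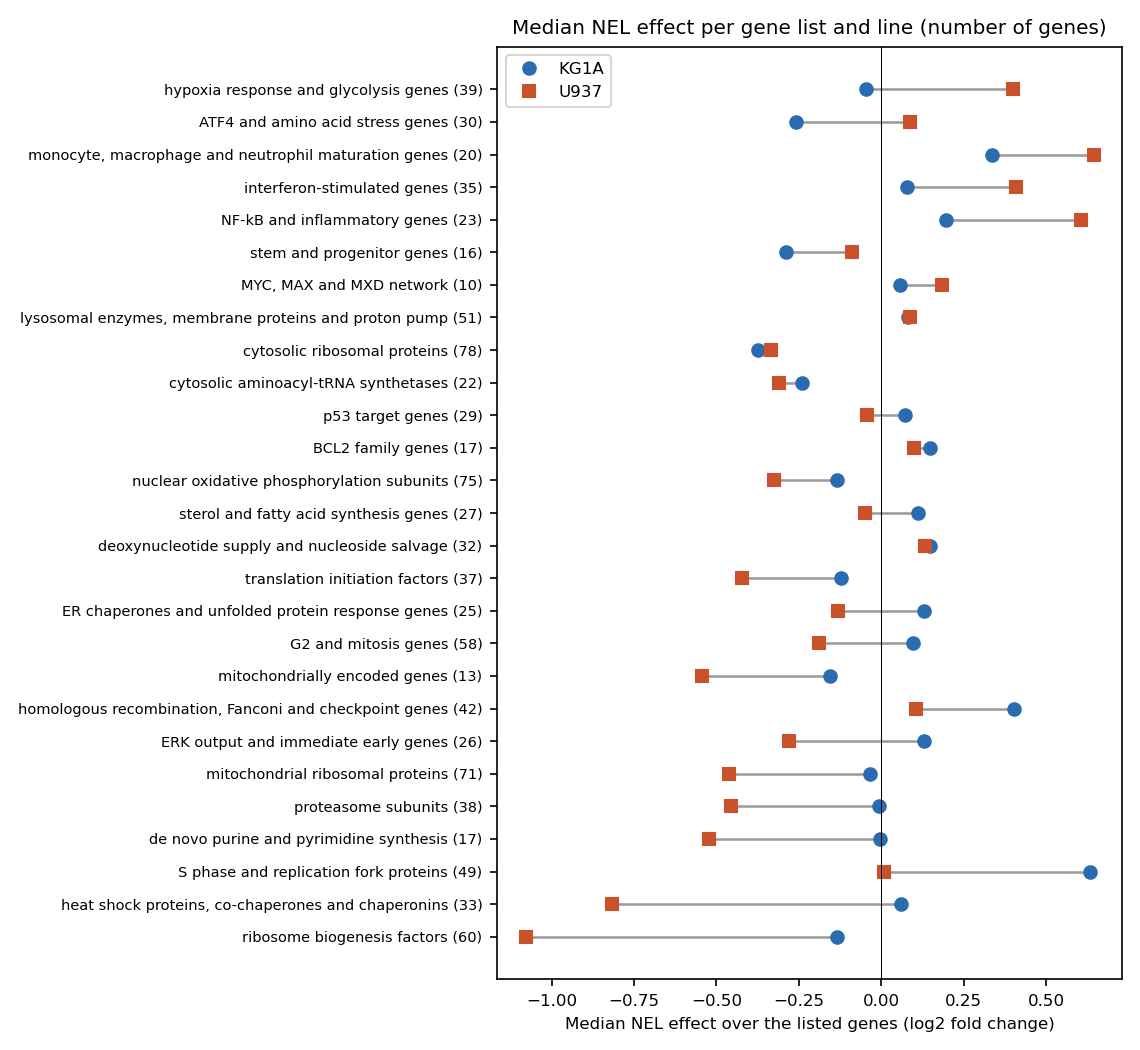
Median log2 fold change of NEL over DMSO in each of 27 gene lists, for KG1A (circles) and U937 (squares), with the number of genes in brackets, ordered by the median difference. Ribosome biogenesis and chaperone lists sit far lower in U937, hypoxia and glycolysis genes higher in U937, and S phase genes higher in KG1A.

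Other growth machinery showed the same order of the lines, to a smaller extent. Proteasome subunits were lower in U937 in 28 of 38 and higher in 5 (median difference -0.45). PSMD1, a scaffold of the regulatory particle, fell from 183–206 to 63.1–71.5 CPM in U937 and overlapped in KG1A (99.6–108 and 98.7–111 CPM, difference -1.56 ± 0.07). PSME3, a nuclear proteasome activator, differed by -1.32 ± 0.06. The largest difference on the higher side was in PSMB9, an interferon-inducible immunoproteasome subunit, which fell in KG1A (-0.22) and rose in U937 (0.87, difference 1.10 ± 0.11). De novo purine and pyrimidine synthesis enzymes were lower in 15 of 17, with none higher (median -0.45). UMPS, which makes UMP, rose slightly in KG1A (0.17) and fell in U937 (-1.27), from 43.2, 47.5, 43.7 and 48.3 to 17.4, 20.0, 18.3 and 20.1 CPM (difference -1.44 ± 0.09, edgeR adjusted p = 2.76e-11). PFAS, of the purine branch, fell from 96.1–106 to 32.6–38.5 CPM in U937, below the 41.8–45.7 CPM of KG1A with NEL (difference -1.33 ± 0.08).

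Mitochondrial ribosomal proteins were lower in U937 in 47 of 71 genes and higher in 1 (median -0.38), with MRPL1 at -1.51 ± 0.11 and MRPL12 at -1.23 ± 0.16. Translation initiation factors were lower in 19 of 37 and higher in 4 (median -0.27). EIF4G1, the scaffold of the cap-binding complex (chromosome 3, 184032283 to 184053146), was at 461, 496, 477 and 470.4 CPM in KG1A with DMSO and 447, 482, 476 and 481 with NEL, and 793, 836, 809 and 835 CPM in U937 with DMSO and 339, 341, 322 and 335 with NEL. Its KG1A groups overlapped, and U937 went from the highest group to the lowest (difference -1.28 ± 0.05, edgeR adjusted p = 3.81e-14). EIF3B, of the eIF3 core, differed by -1.17 ± 0.06, while EIF1, which guides start codon choice, fell in KG1A (-0.16) and rose in U937 (0.42, difference 0.58 ± 0.05).

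Cytosolic ribosomal proteins did not follow the assembly factors. They fell in both lines, 64 of 78 in KG1A and 63 in U937, with medians of -0.37 and -0.33, and the difference was higher in 14 and lower in 9 (median 0.05). These counts depended on the fit: DESeq2's size factors gave 27 higher and 4 lower, the replicate block 33 and 19, and sums of libraries 1 and 3, and 2 and 4, gave 4 and 4. Leaving out KG1A NEL library 1 or U937 NEL library 2 gave 8 and 8, and leaving out KG1A DMSO library 4, KG1A NEL library 3, U937 DMSO library 1 or 3, or U937 NEL library 4 gave 9 and 8. RPS29, of the small subunit, fell in KG1A (-0.52) and stood at 39.2, 48.8, 42.0 and 45.7 CPM with DMSO and 38.9, 44.3, 44.2 and 48.3 CPM with NEL in U937 (difference 0.52 ± 0.10). Some genes of this list had few counts, such as a small subunit gene at 2.04 to 5.45 CPM over all libraries. Whether counting lost reads that match near-identical copies was not tested. Cytosolic aminoacyl-tRNA synthetases, which charge tRNAs, were even, with 9 of 22 higher and 9 lower. AARS1 rose in U937 from 187–211 to 286–322 CPM and overlapped in KG1A at 364–407 and 355–399 CPM (difference 0.63 ± 0.08).

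**Figure D3:**
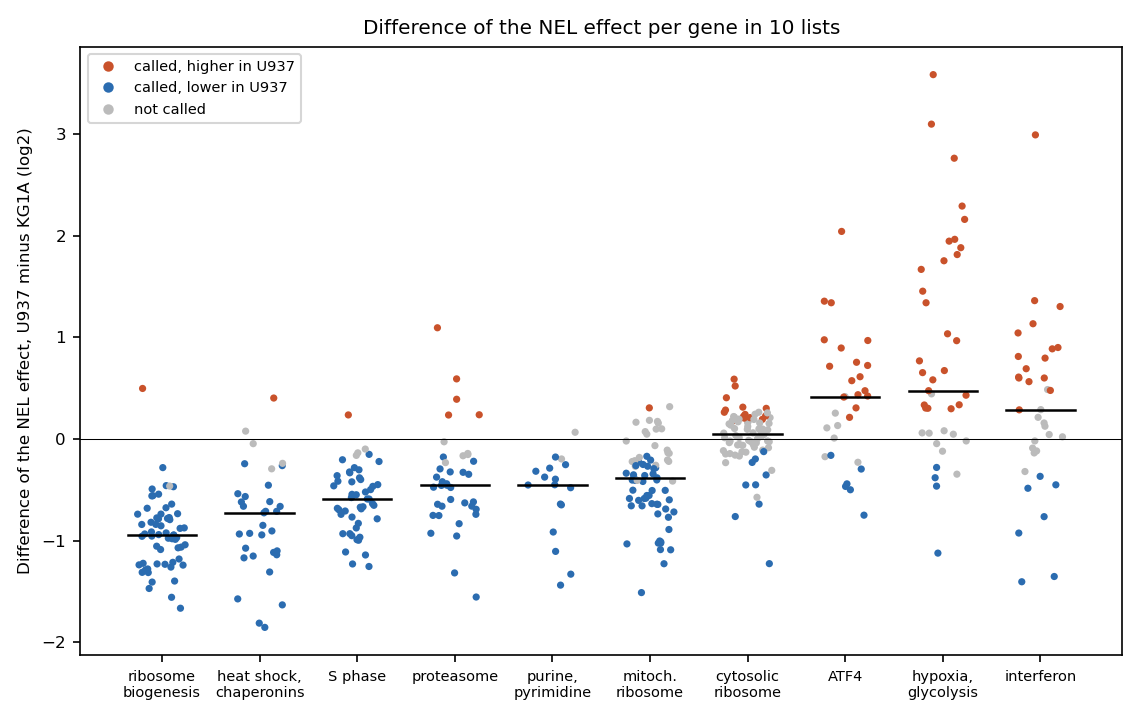
Difference of the NEL effect (log2, U937 minus KG1A) per gene in 10 lists, coloured by the call, with the list median as a bar. Nearly all ribosome biogenesis and S phase genes lie below 0, cytosolic ribosomal proteins lie around 0, and hypoxia and glycolysis genes reach 3.59.

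Genes of DNA replication rose in KG1A and were split in U937. Of 49 S phase and replication fork genes, 46 rose and none fell in KG1A (median 0.63, 3 not called), while in U937 19 rose and 19 fell (median 0.01). The difference was lower in U937 in 45 genes and higher in 1 (median -0.59), and 16 rose in KG1A while they fell in U937. GINS2, a subunit of the replicative helicase, rose from 34.5–36.3 to 45.3–48.3 CPM in KG1A and fell from 56.6–58.0 to 28.7–35.5 CPM in U937 (difference -1.25 ± 0.08, edgeR adjusted p = 1.82e-11). TIPIN, of the fork protection complex, did likewise (0.51 in KG1A and -0.72 in U937, difference -1.23 ± 0.11). PCNA, the sliding clamp, chosen after its values were seen, was at 159.9, 171, 161 and 171 CPM in KG1A with DMSO and 206, 220.0, 203 and 238 with NEL, and 561, 589.7, 536 and 632 CPM in U937 with DMSO and 463, 503, 461 and 502 with NEL. KG1A with NEL lay above KG1A with DMSO and U937 with NEL below U937 with DMSO, and all U937 libraries were above all KG1A libraries (difference -0.65 ± 0.08). The gene on the higher side was RFC1, the large clamp loader subunit, at 0.24 ± 0.09 (edgeR adjusted p = 0.0283), and this call was lost when any of 8 libraries was left out (KG1A DMSO 2 or 4, KG1A NEL 1 or 3, U937 DMSO 1 or 3, U937 NEL 2 or 4), with edgeR adjusted p from 0.0526 to 0.0677, and with libraries 1 and 3, and 2 and 4, summed (edgeR adjusted p = 0.195).

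Both subunits of ribonucleotide reductase, which makes deoxynucleotides, rose in both lines, but they differed between the lines in opposite ways. RRM1, the catalytic subunit (chromosome 11, 4115937 to 4160106), was at 128, 133, 136 and 134 CPM in KG1A with DMSO and 240.3, 234, 248 and 242 with NEL, and 235, 235, 235 and 255 CPM in U937 with DMSO and 299.8, 304, 295 and 306 with NEL. No groups of a line overlapped, and KG1A with NEL reached the level of U937 with DMSO. RRM1 rose more in KG1A (0.86 ± 0.04 against 0.33 ± 0.04, difference -0.53 ± 0.05, edgeR adjusted p = 1.99e-08). RRM2, the regulatory subunit (chromosome 2, 10262455 to 10271545), was at 231, 230.2, 241 and 235 CPM in KG1A with DMSO and 471, 479.5, 471 and 482 with NEL, and 603, 625, 611 and 657 CPM in U937 with DMSO and 1425, 1441, 1415 and 1425 with NEL. It rose slightly more in U937 (1.02 ± 0.03 against 1.19 ± 0.03, difference 0.17 ± 0.05, edgeR adjusted p = 0.00539), a call lost in the even-numbered libraries alone (0.12, edgeR adjusted p = 0.0528) and with libraries 1 and 3, and 2 and 4, summed (0.17, edgeR adjusted p = 0.0924). RRM2B, the p53-induced subunit, was called in neither line (0.05 in KG1A and -0.04 in U937, edgeR adjusted p of the difference = 0.325). SAMHD1, which degrades deoxynucleotides and hydrolyses ara-GTP, rose in both lines (0.70 in KG1A and 0.49 in U937), and its difference of -0.22 ± 0.16 was not called (edgeR adjusted p = 0.368).

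Of the enzymes that handle purine nucleoside drugs, DCK and PNP differed between the lines. DCK, deoxycytidine kinase (chromosome 4, 71858255 to 71896631), was at 140.2, 144, 156 and 156 CPM in KG1A with DMSO and 128, 138, 147 and 149.6 with NEL, and 86.1, 86.9, 83.7 and 95.7 CPM in U937 with DMSO and 124, 123, 120.0 and 121 with NEL. The KG1A groups overlapped and U937 rose, still below KG1A (difference 0.55 ± 0.07, edgeR adjusted p = 1.94e-06). PNP, which breaks down guanosine nucleosides, rose in KG1A from 83.0–86.6 to 114–119.6 CPM and overlapped in U937 at 119.8–129 and 116–125 CPM (difference -0.50 ± 0.05). DGUOK, the mitochondrial deoxyguanosine kinase, fell in KG1A (-0.30) and was not called in U937 (-0.05). Its difference of 0.24 ± 0.13 was not called (edgeR adjusted p = 0.125) but was with the replicate block (0.24, edgeR adjusted p = 0.007) and 7 other settings. Over all 32 genes of deoxynucleotide supply and nucleoside salvage, 10 were higher and 15 lower in U937 (median -0.20). At the ends stood CMPK2, a mitochondrial UMP-CMP kinase that overlaps RSAD2 on the other strand, at 1.24 ± 0.10, and NME1, a nucleoside diphosphate kinase, at -1.29 ± 0.07, with DCTPP1, a dCTP pyrophosphatase, at -1.28 ± 0.09.

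Homologous recombination, Fanconi and checkpoint genes showed the same order of the lines as S phase genes. Of 42, 28 rose and 7 fell in KG1A, 20 rose and 13 fell in U937, and the difference was lower in U937 in 25 and higher in 5 (median -0.31). CDC25A, the phosphatase that activates CDK2 (chromosome 3, 48198636 to 48229892), was at 46.7, 45.9, 43.9 and 49.5 CPM in KG1A with DMSO and 86.3, 93.5, 90.5 and 90.3 with NEL, and 104, 105, 105 and 109 CPM in U937 with DMSO and 80.4, 83.7, 75.1 and 82.3 with NEL. It rose in KG1A to just under the U937 DMSO level and fell in U937, so the order of the lines turned over with NEL (difference -1.35 ± 0.06, edgeR adjusted p = 3.84e-13). XRCC2, a homologous recombination factor, rose in KG1A (0.68) and fell slightly in U937 (-0.12, difference -0.81 ± 0.07). BRCA1, picked after its values were seen, rose in both lines and more in KG1A (0.92 in KG1A and 0.17 in U937, difference -0.75 ± 0.06). FANCE, of the Fanconi core complex, went the other way, from 26.1–29.7 to 49.0–55.0 CPM in U937 and not called in KG1A at 22.5–24.3 and 20.9–26.0 CPM (difference 0.91 ± 0.09).

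Mitosis genes were lower in U937 in 39 of 58 and higher in 3 (median -0.29), with 27 higher and 14 lower in KG1A and 12 and 35 in U937. CCNB1, cyclin B1, fell in both lines and further in U937, from 204–224 to 105–116 CPM against 105–121 to 97.7–104 CPM in KG1A (difference -0.81 ± 0.07). CENPN, a centromere protein, rose in KG1A (0.70) and was not called in U937 (-0.15, difference -0.85 ± 0.10). NEK2, a centrosome kinase, rose in U937 alone by the calls (0.03 in KG1A and 0.48 in U937, difference 0.45 ± 0.08). CDKN1A, the CDK inhibitor p21, rose in both lines and more in U937, from 7.79, 6.82, 7.596 and 7.18 to 43.6, 32.4, 40.3 and 32.1 CPM there and from 3.78, 2.23, 2.70 and 2.56 to 9.66, 7.68, 9.48 and 7.85 CPM in KG1A. Its difference of 0.71 ± 0.23 (edgeR adjusted p = 0.0121) was lost without KG1A DMSO library 1 (0.54, edgeR adjusted p = 0.0709), with libraries 1 and 3, and 2 and 4, summed (0.71, edgeR adjusted p = 0.0787) and in the even-numbered libraries alone (0.51, edgeR adjusted p = 0.132). The p53 target genes, CDKN1A included, were mixed, with 9 of 29 higher and 7 lower, beside 24.7% and 33% over all 12016 genes. Their median difference of -0.06 turned to 0.03 with DESeq2's size factors. CCNG1, cyclin G1, fell in KG1A and rose in U937 (-0.29 in KG1A and 0.64 in U937, difference 0.93 ± 0.06), and AEN, an apoptosis-linked nuclease, did the reverse (0.36 in KG1A and -1.43 in U937, difference -1.79 ± 0.10).

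**Figure D4:**
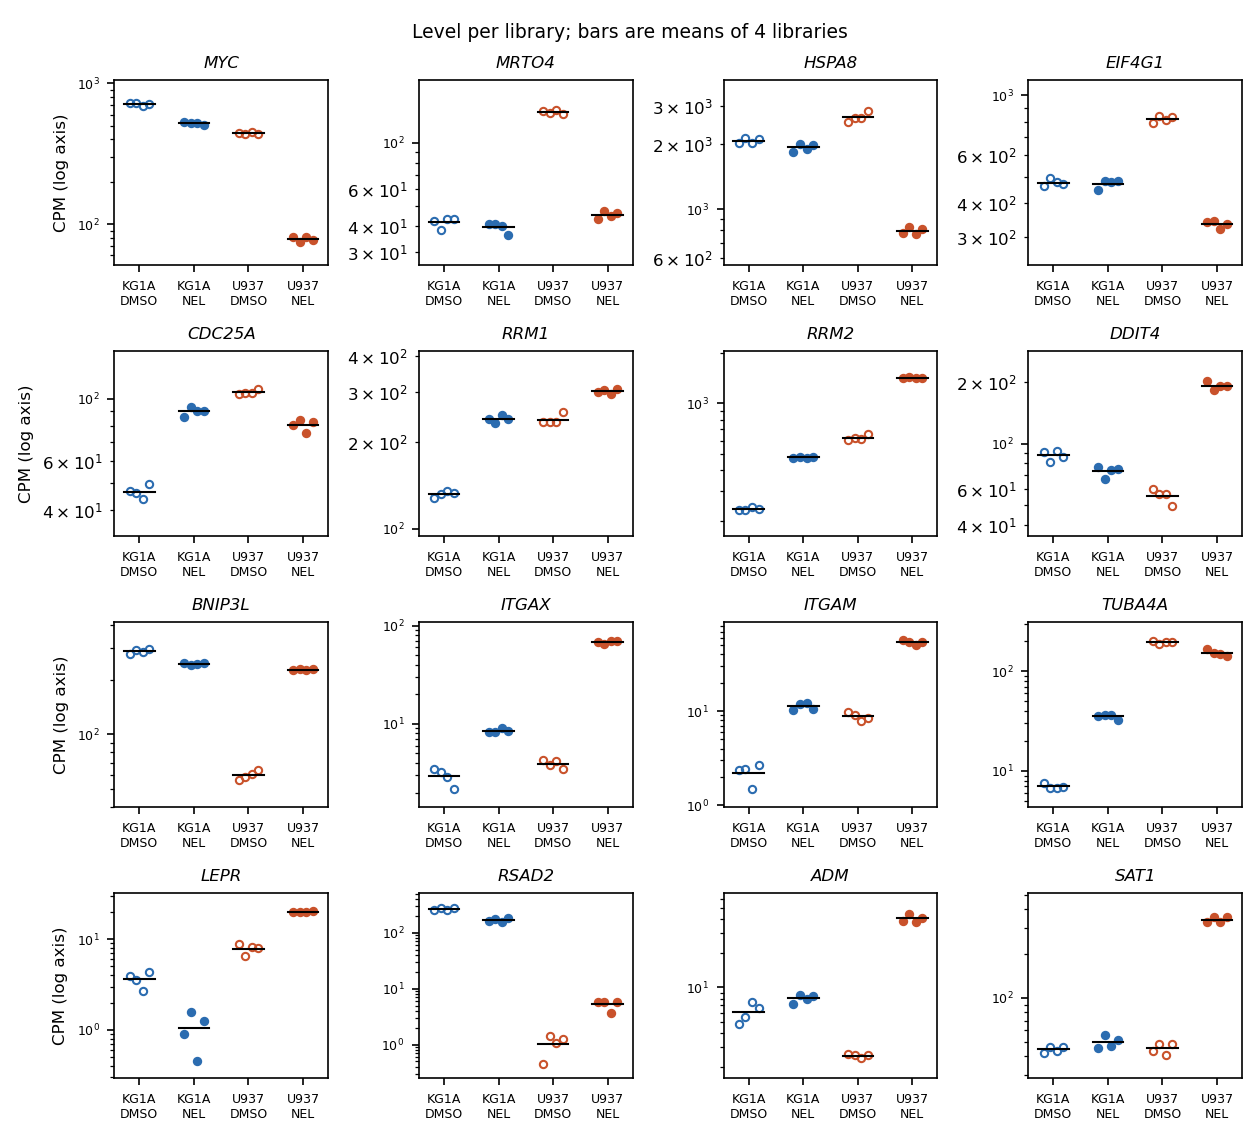
CPM per library on a log axis for 16 genes, with open symbols for DMSO, filled symbols for NEL and a bar at the mean of 4 libraries. MYC, MRTO4, HSPA8 and EIF4G1 drop further in U937 than in KG1A, CDC25A, TUBA4A, LEPR and RSAD2 move in opposite directions in the lines, and ITGAM rises in both.

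Amino acid stress genes mostly fell in KG1A and more often rose than fell in U937. ATF4 itself fell in both lines (-0.54 in KG1A and -0.40 in U937), and its difference of 0.13 ± 0.08 was not called (edgeR adjusted p = 0.215), whereas the replicate block called it (0.13, edgeR adjusted p = 0.00102), as did 7 other settings. Of 30 genes linked to ATF4, 17 were higher in U937 and 6 lower (median 0.42). In KG1A 18 fell and 6 rose, and in U937 13 rose and 9 fell. ASNS, asparagine synthetase (chromosome 7, 97481430 to 97501854), was at 59.4, 61.2, 60.1 and 63.3 CPM in KG1A with DMSO and 38.9, 40.7, 38.0 and 37.2 with NEL, and 30.1, 36.2, 31.8 and 33.5 CPM in U937 with DMSO and 33.1, 35.5, 35.4 and 36.9 with NEL. It fell in KG1A with no overlap and was not called in U937 (edgeR adjusted p = 0.140), a difference of 0.76 ± 0.08 (edgeR adjusted p = 6.85e-08). DDIT4, an inhibitor of mTORC1, fell slightly in KG1A and rose in U937 from 60.1, 56.8, 56.5 and 49.3 to 203, 184, 190.5 and 191 CPM (-0.26 in KG1A and 1.79 in U937, difference 2.04 ± 0.08). CHAC1, which breaks down glutathione, had the same directions at a low level in U937 (1.16–2.30 and 3.23–3.74 CPM, difference 1.36 ± 0.20). On the other side was SLC7A5, the leucine transporter, which fell in both lines and more in U937 (-0.51 in KG1A and -1.26 in U937, difference -0.75 ± 0.16). DDIT3, the stress factor CHOP, rose in both lines (0.50 in KG1A and 0.91 in U937); its difference of 0.42 ± 0.22 was not called (edgeR adjusted p = 0.138) except with the block (0.42, edgeR adjusted p = 0.0308) and 4 other settings.

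The element bound by ATF4 with C/EBP partners was searched as TGATGNAA on both strands and is in capitals in the promoters of ASNS (chr7:97872359-97872658, minus strand) and CHAC1 (chr15:40953221-40953520, plus strand), shown because both hold it and both differed.
ASNS: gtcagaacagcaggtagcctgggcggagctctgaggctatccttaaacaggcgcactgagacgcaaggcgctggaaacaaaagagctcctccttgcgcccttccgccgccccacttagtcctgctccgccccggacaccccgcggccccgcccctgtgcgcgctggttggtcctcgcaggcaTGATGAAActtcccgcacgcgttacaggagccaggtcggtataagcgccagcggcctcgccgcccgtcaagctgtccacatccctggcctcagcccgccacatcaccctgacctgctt
CHAC1: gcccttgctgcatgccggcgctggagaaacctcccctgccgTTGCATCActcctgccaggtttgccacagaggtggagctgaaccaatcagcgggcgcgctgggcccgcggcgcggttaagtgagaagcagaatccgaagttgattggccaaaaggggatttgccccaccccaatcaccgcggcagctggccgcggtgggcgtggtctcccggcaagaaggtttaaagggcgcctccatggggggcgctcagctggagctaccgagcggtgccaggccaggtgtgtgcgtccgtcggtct
The match lies 68 bases before the start in ASNS and 209 in CHAC1, where it reads on the other strand. It was found in 6 of 25 matched promoters of the ATF4 list (24.0%) and in 6 of 18 of the tRNA synthetases (33.3%), against 1.64% of the 8955 matched genes and 3.67% of all promoters. CARS1 counts in both lists. The ATF4 list was drawn up from genes linked to ATF4, so its share is no test, and a match is no evidence of binding.

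Hypoxia response and glycolysis genes held the largest positive median difference among the 27 lists of at least 10 genes. Of 39, 26 had a higher NEL effect in U937 and 4 a lower one (median 0.48). In U937 28 rose and 4 fell, in KG1A 11 rose and 11 fell, and 7 genes rose in U937 while they fell in KG1A. Shares over all 12016 genes were 31.7% and 39% in U937 and 23.4% and 23.8% in KG1A. ADM, the peptide hormone adrenomedullin (chromosome 11, 10326227 to 10328944), was at 4.82, 5.56, 7.44 and 6.67 CPM in KG1A with DMSO and 7.13, 8.65, 8.01 and 8.39 with NEL, and 2.60, 2.57, 2.41 and 2.57 CPM in U937 with DMSO and 38.5, 44.3, 37.4 and 40.6 with NEL. The KG1A groups overlapped, although NEL was called higher there, and U937 rose from below KG1A to far above it (difference 3.59 ± 0.18, edgeR adjusted p = 6.53e-13). PFKFB4, which sets the level of a glycolysis activator, overlapped in KG1A at 52.0–53.8 and 45.7–53.7 CPM and rose from 16.9–20.1 to 139–155 CPM in U937 (difference 3.10 ± 0.08). NDRG1, a hypoxia-induced gene picked after its values were seen, reached 1169.9–1242 CPM in U937 from 181–202 and stayed at 43.8–52.5 and 41.4–49.3 CPM in KG1A (difference 2.77 ± 0.08).

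PGK1, a glycolytic enzyme also picked afterwards, had a smaller difference than ADM, at 0.48 ± 0.05. It fell in KG1A from 691, 657, 693 and 676 to 492, 503, 520.0 and 522 CPM. In U937, where it was not called, it was at 814, 810.4, 799 and 857 CPM with DMSO and 858, 845, 851 and 869 with NEL. HIF1A, the hypoxia factor itself, was not called in the difference (0.08). SLC16A1, the lactate transporter MCT1, had a lower NEL effect in U937. There it fell by 0.99 on the log2 scale, while it rose by 0.13 in KG1A (difference -1.12 ± 0.05). BNIP3 and BNIP3L, mitophagy receptors of the BCL2 family, both had a higher NEL effect in U937. BNIP3L was at 277, 292, 284 and 293 and then 246, 239.7, 243 and 248 CPM in KG1A, and 56.2, 58.0, 60.5 and 63.5 and then 227, 228, 226 and 229.5 CPM in U937. It fell in KG1A and rose in U937 to levels just under those of KG1A with NEL (difference 2.16 ± 0.05, edgeR adjusted p = 1.99e-17). BNIP3 differed by 1.67 ± 0.09, and BID, a pro-apoptotic family member, by -1.05 ± 0.09. The BCL2 family as a list was even, with 6 of 17 higher and 6 lower.

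Of 51 listed maturation genes of monocytes, macrophages and neutrophils, only 20 met the floor of 1 CPM in every group. Of these 20, 12 rose and 1 fell in KG1A, and 15 rose and 2 fell in U937. Over all 12016 genes 23.4% rose in KG1A and 31.7% in U937. The difference was higher in U937 in 10 of the 20 and lower in 4 (median 0.35). The integrin chains stood apart from one another. ITGAM, CD11b (chromosome 16, 31271311 to 31344213), was at 2.36, 2.41, 1.49 and 2.65 CPM in KG1A with DMSO and 10.4, 11.8, 12.2 and 10.5 with NEL, and 9.75, 9.13, 7.86 and 8.50 CPM in U937 with DMSO and 56.4, 54.2, 50.1 and 53.6 with NEL. It rose in both lines (2.33 in KG1A and 2.60 in U937), and the difference of 0.28 ± 0.18 was not called (edgeR adjusted p = 0.220), though limma-trend called it on log2(RPKM + 0.1) (0.48, adjusted p = 0.0281) and log2(RPKM + 0.5) (0.84, adjusted p = 1.19e-05). ITGAX, CD11c (chromosome 16, 31366455 to 31394318), was at 3.4996, 3.24, 2.88 and 2.19 CPM in KG1A with DMSO and 8.30, 8.29, 9.02 and 8.39 with NEL, and 4.30, 3.81, 4.20 and 3.45 CPM in U937 with DMSO and 67.5, 64.5, 69.5 and 70.1 with NEL. From like DMSO levels it rose far more in U937 (difference 2.58 ± 0.17, edgeR adjusted p = 3.81e-11). ITGAL, CD11a, rose in U937 from 45.5–53.8 to 236–271 CPM and overlapped in KG1A at the higher levels of 552–654 and 535–663 CPM (difference 2.41 ± 0.10).

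CEBPA, a myeloid transcription factor, and FCGR2A, an Fc receptor, had a lower NEL effect in U937, though their levels were higher there. CEBPA rose in KG1A from 19.9–21.4 to 28.9–33.4 CPM and fell in U937 from 391–460.3 to 237–268 CPM (difference -1.36 ± 0.09). FCGR2A rose in both lines, from 1.19–1.77 to 3.25–5.56 CPM in KG1A and 49.9–57.5 to 93.2–102 CPM in U937, and its difference of -0.84 ± 0.20 was 0.0739 with limma-trend on log2(RPKM + 0.5) (adjusted p = 0.628) and was not called in the odd-numbered libraries alone (-0.49, edgeR adjusted p = 0.173). Of 16 stem and progenitor genes 13 fell and none rose in KG1A, where 23.8% of all 12016 genes fell. In U937 6 rose and 8 fell, beside 31.7% and 39% of all genes. The difference was higher in 8 and lower in 4 (median 0.20). GATA2 fell in KG1A (-0.42) and was at 2.51, 1.86, 2.14 and 1.59 and 2.77, 2.47, 3.22 and 2.46 CPM in U937 (difference 0.85 ± 0.19), MSI2, an RNA-binding protein of stem cells, fell in KG1A and rose in U937 (-0.34 in KG1A and 0.38 in U937), and LYL1 fell in both and more in U937 (-0.29 in KG1A and -1.04 in U937). CD34 and KIT were under 1 CPM in a group and are not among the 16, to which the floor cut 34 listed genes.

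In the immune response lists more genes had a higher than a lower effect in U937. Of 50 listed interferon-stimulated genes 35 met the floor, and of those 16 were higher and 7 lower in U937 (median 0.29). RSAD2, the antiviral protein viperin (chromosome 2, 7005937 to 7038370), was at 259, 276, 259.8 and 283 CPM in KG1A with DMSO and 162, 174, 158 and 182 with NEL, and 0.447, 1.42, 1.07 and 1.24 CPM in U937 with DMSO and 5.80, 5.88, 3.74 and 5.69 with NEL. It fell in KG1A from a high level and rose in U937 from a level near the floor (difference 3.00 ± 0.23, edgeR adjusted p = 5.21e-10). RSAD2 overlaps CMPK2 on the other strand, and whether the counting used strand is unknown here, so their reads may be shared. USP18, an interferon-induced protease, differed by 1.36 ± 0.29. IFIT2 and IFIT3, RNA-binding antiviral proteins, were lower in U937: IFIT3 rose from 31.2–33.9 to 42.4–45.6 CPM in KG1A and fell from 21.4–25.1 to 11.2–12.7 CPM in U937 (difference -1.35 ± 0.09), and IFIT2 moved the same way (0.60 in KG1A and -0.81 in U937, difference -1.41 ± 0.16).

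Of 23 NF-kB and inflammatory genes, 11 were higher and 8 lower in U937 (median 0.26), beside 24.7% and 33% of all 12016 genes. IL1B, interleukin 1 beta, was at 81.8–84.8 and 83.5–90.1 CPM in KG1A, not called, and rose from 1.68–2.23 to 6.20–8.09 CPM in U937 (difference 1.80 ± 0.13). TRAF1, a receptor adaptor, rose in both lines and more in U937 (0.55 in KG1A and 2.22 in U937, difference 1.67 ± 0.16). CD83, a marker of activated antigen-presenting cells, rose in KG1A and fell in U937 (0.90 in KG1A and -0.36 in U937, difference -1.26 ± 0.12). ICAM1, an adhesion receptor, rose in KG1A from 22.3–25.9 to 48.5–52.9 CPM and overlapped in U937 at 66.0–71.8 and 70.0–76.0 CPM (difference -1.03 ± 0.07).

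ERK output and immediate early genes were lower in U937 in 17 of 26 and higher in 6 (median -0.36). JUN, an AP-1 subunit, rose in KG1A from 1.04, 1.02, 0.558 and 1.46 to 3.43, 4.23, 3.41 and 4.06 CPM and fell in U937 from 53.2, 55.4, 52.6 and 54.1 to 40.5, 43.2, 42.4 and 39.8 CPM. The groups did not overlap in either line, and U937 stayed far above KG1A (difference -2.25 ± 0.19, edgeR adjusted p = 3.55e-09). DUSP2, a MAP kinase phosphatase, fell in U937 from 8.86–9.13 to 1.96–2.70 CPM and was not called in KG1A (difference -2.25 ± 0.17). FOSL1 and FOSL2, related AP-1 partners, parted: FOSL1 fell in U937 (-2.37) and FOSL2 rose there (1.98), with neither called in KG1A (-0.15 and 0.08), giving differences of -2.23 ± 0.17 and 1.90 ± 0.06.

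Metabolic and organelle lists had smaller median differences than the ribosome assembly and chaperone lists. Nuclear oxidative phosphorylation subunits were lower in U937 in 32 of 75 and higher in 2 (median -0.17; 24 lower, 8 higher and a median of -0.08 with DESeq2's size factors, and 9 higher with the replicate block), with ATP5MC1, the rotor subunit of ATP synthase, at -1.15 ± 0.10. Of the 13 mitochondrially encoded genes 4 were lower and 1 higher (median -0.31), and 9 and 3 with the replicate block. MT-ND1, a complex I subunit, ranged over 6748–8198 and 5798–7898 CPM in KG1A, with overlap, and 4630.1–6319 and 2429.5–3066 CPM in U937 (difference -0.89 ± 0.14), and MT-ND2 differed by -0.82 ± 0.17. Sterol and fatty acid synthesis genes were mixed, with 8 of 27 higher and 12 lower. STARD4, a sterol carrier, rose in both lines and more in U937 (0.51 in KG1A and 1.73 in U937, difference 1.22 ± 0.08), while NSDHL, a late enzyme of cholesterol synthesis, rose in KG1A and fell in U937 (0.23 in KG1A and -0.75 in U937, difference -0.98 ± 0.10). Lysosomal genes were higher in 16 and lower in 11 of 51, beside 24.7% and 33% of all 12016 genes. The enzyme gene MANBA was at 0.91 ± 0.10 and the cholesterol exporter gene NPC1 at -0.81 ± 0.05. H2BC12, a histone H2B gene and 1 of 2 listed histone genes at 1 CPM or more in every group, fell in KG1A and rose in U937 (-0.63 in KG1A and 1.48 in U937, difference 2.11 ± 0.20).

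Large differences also lay outside these lists. CD52, a surface glycoprotein of lymphocytes and monocytes (chromosome 1, 26644448 to 26647014), was at 26.6, 22.2, 27.6 and 20.8 CPM in KG1A with DMSO and 33.0, 24.6, 36.0 and 26.0 with NEL, and 1.88, 1.42, 1.88 and 0.709 CPM in U937 with DMSO and 48.2, 39.7, 42.0 and 33.2 with NEL. The KG1A groups overlapped and were not called, and U937 rose from just above the floor to levels that overlapped those of KG1A with NEL (difference 4.49 ± 0.26, edgeR adjusted p = 8.87e-12). COLQ, the collagen tail of acetylcholinesterase, was at 7.52, 7.36, 6.79 and 7.18 CPM in U937 with DMSO and 68.6, 73.0, 74.2 and 76.1 CPM with NEL. In KG1A it stayed between 1.89–2.65 CPM with DMSO and 1.29–2.62 CPM with NEL (difference 3.47 ± 0.21). SAT1, the enzyme that starts polyamine breakdown, was at 42.5, 46.4, 43.5 and 46.3 CPM in KG1A with DMSO and 45.9, 56.2, 46.8 and 51.9 with NEL, and 43.8, 48.3, 41.1 and 48.3 CPM in U937 with DMSO and 326, 354, 328 and 353 with NEL. The DMSO groups lay at like levels, KG1A was called slightly higher despite overlap, and every U937 NEL library was above all others (difference 2.74 ± 0.09, edgeR adjusted p = 9.58e-16).

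Among named genes reaching 5 CPM in a group that were higher in U937 and lower in KG1A, the largest differences were those of LEPR, the leptin receptor, ZNNT1, a long non-coding RNA, RSAD2 and ZC3H6, a zinc finger gene. LEPR (chromosome 1, 65886248 to 66107242) was at 3.88, 3.52, 2.70 and 4.30 CPM in KG1A with DMSO and 0.902, 1.59, 0.460 and 1.26 with NEL, and 8.86, 6.47, 8.22 and 7.97 CPM in U937 with DMSO and 19.7, 19.8, 19.7 and 20.3 with NEL. No groups overlapped, KG1A fell to about the floor, and U937 rose (difference 3.09 ± 0.26, edgeR adjusted p = 3.18e-09). ZNNT1 went from 2.65–4.02 to 0.993–1.94 CPM in KG1A and 7.79–9.20 to 25.04–28.5 CPM in U937 (difference 3.09 ± 0.23). ZC3H6 went from 19.0–21.4 to 11.3–13.4 CPM and 8.50–10.3 to 35.4–43.7 CPM (difference 2.73 ± 0.12). Among genes lower in U937 and higher in KG1A, TUBA4A, an alpha-tubulin (chromosome 2, 220114433 to 220142892), led. Its levels were 7.66, 6.68, 6.79 and 6.85 CPM in KG1A with DMSO and 35.7, 36.8, 36.4 and 32.9 with NEL, and 202, 187, 199 and 198 CPM in U937 with DMSO and 167, 154, 149 and 144 with NEL. KG1A with NEL stayed far under both U937 groups, although it rose (log2 fold change 2.34 ± 0.08) while U937 fell slightly (-0.36 ± 0.05, difference -2.70 ± 0.09, edgeR adjusted p = 1.20e-15). ANKLE1, an endonuclease of blood-forming cells, differed by -2.43 ± 0.20. SLAMF8, a receptor of myeloid cells, and SNHG28, a small nucleolar RNA host gene, differed by -2.44 ± 0.18 and -2.40 ± 0.23, but they overlap on opposite strands and may share reads.

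Genes called in KG1A and not in U937 were led by NRP1, a semaphorin and VEGF co-receptor, which went from 3.26–5.19 to 20.9–23.0 CPM in KG1A and overlapped in U937 at 8.68–10.2 and 9.93–11.3 CPM (difference -2.25 ± 0.15). SIPA1L2, a Rap GTPase activator, followed (1.85 in KG1A and -0.26 in U937, difference -2.11 ± 0.24). On the lower side, FZD2, a Wnt receptor, fell in KG1A (-0.75), and its difference of 1.13 ± 0.27 was lost in the even-numbered libraries alone (0.58, edgeR adjusted p = 0.0748). Of genes higher in both lines and more in KG1A, MYO7A, an unconventional myosin, and MICAL2, an actin-oxidizing enzyme, differed by -2.12 ± 0.18 and -1.47 ± 0.13. KCTD12, a GABA-B receptor partner, fell in both and more in U937, to 1.04, 1.36, 1.31 and 0.425 CPM there (difference -1.93 ± 0.24). PSRC1, a spindle protein, and DPH6, an enzyme of diphthamide synthesis, fell in both lines and more in KG1A (1.01 ± 0.13 and 0.84 ± 0.20), and the DPH6 call was lost in the odd-numbered libraries alone (0.58, edgeR adjusted p = 0.051).

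The differences were alike in the library sets. Libraries 1 and 3 alone gave 2850 genes higher and 3719 lower in U937, libraries 2 and 4 alone 2813 and 3830, and 5483 of the 6933 called genes were called in each set. The sign was the same in both sets in 6931 of the 6933, which follows largely from calling the genes on both sets together. The difference itself differed between the sets in 1 gene by edgeR's adjusted test, RPL26, a ribosomal protein gene named here for its value. It was not called over all libraries (0.21 ± 0.20, edgeR adjusted p = 0.419), at 0.56 in libraries 1 and 3 and -0.05 in libraries 2 and 4 (0.62 ± 0.11 apart, edgeR adjusted p = 7.93e-04). On the unlogged CPM scale 97.0% of the called genes kept their sign. Genes with longer exons tended to higher differences, with a Spearman rho of 0.13 over the 12016 genes, a description across genes. The median difference was -0.11 and -0.14 in the shorter 2 of 4 equal bins of exon length and -0.05 and 0.06 in the longer ones, and the part of length in the other results was not tested.

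**Figure D5:**
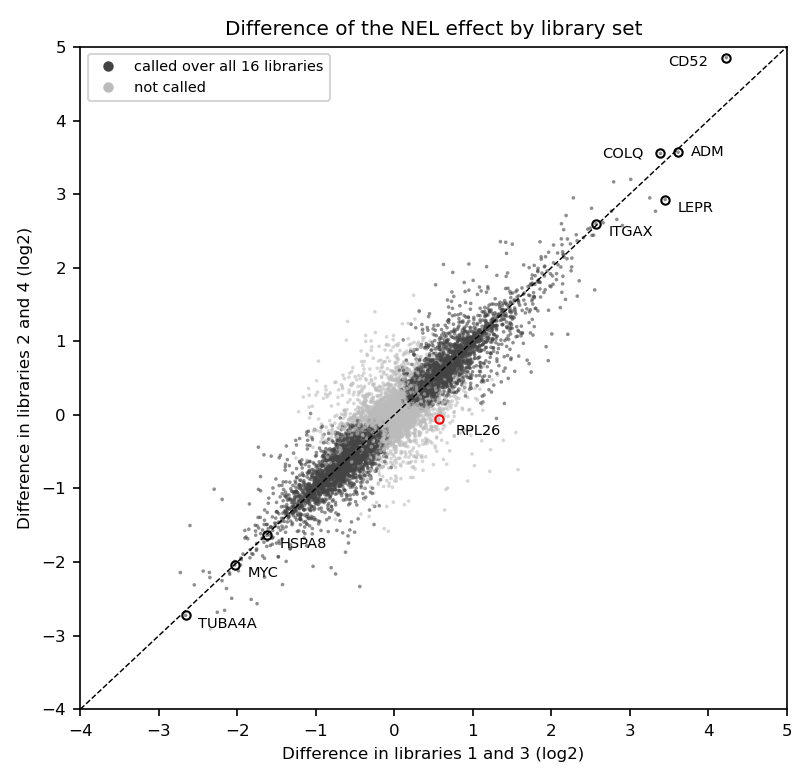
Difference of the NEL effect (log2, U937 minus KG1A) in libraries 1 and 3 (horizontal axis) against libraries 2 and 4 (vertical axis), 1 point per gene. Called genes lie along the dashed line of equal values, and RPL26 is marked for the 0.62 by which its sets differed.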

How the data were processed

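Polyadenylated RNA of 16 libraries was analysed, 4 per line and treatment. The authors deposited raw read counts per gene, on hg19 (GRCh37) with bcl2fastq 2.18.0.12, TopHat2 and HTSeq 0.11.2, per the submitters' processing notes. Which annotation was used, and whether strand was, is not given in the sources used here. RPKM values that the authors deposited served alternatives, and they matched each count divided by exon length and library total to within 1.86e-07 of the value. A symbol was found for 24496 of 34618 IDs, and IDs without one took 2.56% of the counts. 0 sample columns were left over.

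Counts were fitted with edgeR 4.0.16 in R 4.3.3 (quasi-likelihood, TMM, minimum count 10 and minimum total 15), with no covariate, on 4 group means. P-values were adjusted by Benjamini-Hochberg over 16117 genes and called under 0.05. An SE is the log2 fold change over the square root of F. The script was checked on simulated data. Alternatives were other factors, filters, thresholds and library sums, DESeq2 1.42.0, limma 3.58.1 (voom, and trend on log2(RPKM + 0.5) or log2(RPKM + 0.1)) and each library left out.

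The genes and 28 pathway and 6 marker lists were chosen with earlier results of these data known. Named were, per pattern of calls, the 4 largest differences (opposite directions) or the 2 largest (others) with at least 5 CPM in a group, 16 fixed genes, and up to 2 per list and direction. Choices by size left out unnamed loci and small or unnamed non-coding RNAs. NOP2, HSP90AA1, PCNA, BRCA1, PGK1, NDRG1 and RPL26 were added after their values were seen. Some genes that the rule names are not reported here. No label says that libraries of a group were separate cultures, so the spread that p-values are set against may be technical.

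Deviations from group means of DMSO and NEL libraries of a line with the same number correlated at 0.289 to 0.369 over 11845 genes in each of the 8 pairs. The number was therefore a block in alternative fits, and the main fit had none. Libraries of the same set (1 and 3, or 2 and 4) correlated as well with unlike numbers or lines. U937 DMSO 1 and U937 NEL 3 were at 0.375, and KG1A NEL 4 and U937 DMSO 4 at 0.390. Pairing by number thus cannot be told apart from the library sets. Figures used Python 3.11.15 and matplotlib 3.10.9.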

Additional observations from a re-analysis of the deposited data

Results flagged for a closer look

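Of 452 sets of 4 libraries (113 named genes in 4 groups), 18 held a library far from the others, 3.98%. For 4 independent, normally distributed values chance gives about 1 in 20. Libraries 1 and 3 stood apart from 2 and 4, so that rate may not hold here. In KG1A with DMSO these were FOSL1 in library 1 (17.97 CPM, others 13.4 to 14.0), DDIT3 in library 2 (4.36, others 3.41 to 3.47) and STARD4 in library 2 (47.7, others 41.7 to 42.7). In KG1A with NEL, library 1 stood apart for CCNB1 (97.7 CPM, others 104.2 to 104.4), EIF4G1 (447, others 476 to 482), HSPA1B (3.16, others 4.79 to 5.03), PSMB9 (36.3, others 32.3 to 32.7) and H2BC12 (5.41, others 4.50 to 4.51). In the same group ITGAX stood apart in library 3 (9.02 CPM, others 8.29 to 8.39), and SLAMF8 (5.60, others 6.77 to 6.81) and UMPS (44.3, others 38.5 to 38.7) in library 4. In U937 with DMSO these were ADM in library 3 (2.41 CPM, others 2.57 to 2.60), PSMB9 in library 3 (13.2, others 18.3 to 18.4) and RRM1 in library 4 (255.2, others 234.6 to 234.9). In U937 with NEL they were RSAD2 in library 3 (3.74 CPM, others 5.69 to 5.88), PFAS in library 4 (32.6, others 37.6 to 38.5), and CD83 (33.7, others 35.3 to 35.4) and NPC1 (181, others 173 to 174) in library 2. RPL26 is listed because its U937 minus KG1A value was 0.62 higher in libraries 1 and 3 than in libraries 2 and 4 (edgeR adjusted p = 7.93e-04), and it was chosen after its values were seen.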

How the results depend on the processing

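The counts of genes higher in U937 (2968), lower (3965) and opposite (1363) stayed within 1.5 times these values under the alternatives run, with the following exceptions. A 2-fold minimum left 504, 508 and 368. An adjusted p under 0.01 left 885 opposite genes, and summing libraries 1 and 3, and 2 and 4, left 744 (with 2269 higher and 3092 lower), the cause of which was not tested. Leaving out 1 library gave 2849 to 2935 higher, 3839 to 3890 lower and 1238 to 1349 opposite. The replicate block gave 3471, 4536 and 1922, and changed a call of a named gene only for DGUOK, ATF4, DDIT3 and RPL26 and moved list counts of 5 or more by over 1.5 times for ribosomal proteins, oxidative phosphorylation and mitochondrially encoded genes. If libraries 1 and 2, and 3 and 4, of a group were 1 sample each, summing them gave 3316, 4443 and 1768. FCGR2A turned from -0.84 to 0.0739 with limma-trend on log2(RPKM + 0.5). Of the values of 113 named genes under single alternatives, 3794 kept direction and side of the threshold, 28 gained a call, 19 lost one and 1 reversed. Among list counts, summing libraries 1 and 3, and 2 and 4, left 6 higher genes for deoxynucleotide supply, 5 for p53 targets and 3 for the proteasome. Without KG1A NEL library 4, 5 oxidative phosphorylation genes were higher in place of 2. DESeq2's size factors gave 9 higher recombination genes in place of 5. The library totals, 10641567 counts at the least, limit the precision of genes near 1 CPM.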

Other observations

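Some genes that U937 hardly expressed with DMSO appeared there with NEL, and the floor of 1 CPM keeps them out of the comparison above. They were chosen after their values were seen, and fitted differences of genes near 0 depend on the prior count. TMEM156, a membrane protein, was at 0.0671 ± 0.0856 CPM with DMSO and 4.06 ± 0.607 with NEL in U937 (mean ± SD, n = 4), and at 58.5 ± 2.36 and 63.2 ± 2.30 CPM in KG1A. CD109, a surface glycoprotein of CD34+ cells, went from 0.246 ± 0.185 to 4.52 ± 0.632 CPM in U937 and stood at 326 ± 3.63 and 305 ± 2.50 CPM in KG1A. PLXNB2, a semaphorin receptor, went from 0.245 ± 0.135 to 6.04 ± 0.265 CPM in U937 and from 26.5 ± 1.82 to 42.2 ± 1.86 CPM in KG1A. SPP1, osteopontin, reached 9.88 ± 1.01 CPM in U937 from 0.111 ± 0.111, with 0.302 ± 0.0878 and 0.986 ± 0.530 CPM in KG1A. ADGRG3, an adhesion receptor of neutrophils, went from 0.777 ± 0.517 to 14.8 ± 2.183 CPM in U937 and from 2.86 ± 0.372 to 4.38 ± 0.400 CPM in KG1A.

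Of the 4101 genes tested that missed the floor, 1351 were under 1 CPM in both U937 groups and in neither KG1A group, and the difference was called in 142 of them. Another 1281 were under 1 CPM in both KG1A groups and in neither U937 group, with 141 called. Of the 184 genes under 1 CPM in U937 with DMSO alone it was called in 124, and of the 166 under 1 CPM in KG1A with DMSO alone in 62. A rise across the floor helps to put a gene in these last 2 classes, so their shares are no test.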
